A study of Homo sapiens with 8 samples.

Results

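The AP-1 and immediate-early genes were followed here in cells labelled Caco-2, the name of an established human colorectal adenocarcinoma line, with and without Siglec-XII, a human member of the Siglec family of cell surface receptors. The set holds 10 genes: the FOS family genes FOS, FOSB, FOSL1 and FOSL2, the JUN family genes JUN, JUNB and JUND, and the immediate-early genes EGR1, IER2 and IER3. They were taken by symbol from a table of 63816 gene entries, in which 15 entries carry 1 of these symbols, and where a symbol repeated the entry of highest mean was used. Both groups had been stably transfected and grown under G418, the control group with the empty expression vector pcDNA3.1 (4 libraries) and the other with the same vector carrying full-length SIGLEC12 (4 libraries, called Siglec-XII below). Each group came from its own transfection, so Siglec-XII itself and the transfected population that carries it cannot be told apart. The series text gives fewer cultures per condition than there are libraries and technical replicate libraries are named in the methods, so the p-values below measure the spread between libraries, which may be technical. The study measured higher phosphorylation of the ERK kinases in the Siglec-XII cells, and the question put to these data was how transcripts that lie downstream of that kinase pathway stood in the same cell model.

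AP-1 is a dimeric transcription factor made of a FOS family and a JUN family protein, or of a pair of JUN family proteins, joined through leucine zippers. Immediate-early genes are transcribed within minutes of a growth factor, stress or cytokine signal without new protein synthesis, and the transcripts of FOS, EGR1 and IER2 are short-lived. In the ERK pathway the kinases phosphorylate ternary complex factors such as ELK1, which sit with serum response factor (SRF) on the promoters of FOS and EGR1. FOSL1, FOSL2 and JUND belong to the later or more constant part of this system, and in colorectal cancer cells AP-1 is known for its part in proliferation, migration and invasion.

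The promoters of 4 genes are shown because FOSL2 and JUND were the members whose groups did not overlap, and because EGR1 and FOS, which share upstream factors, had group differences of opposite sign (that of FOS within the spread between libraries). Each run gives 250 bases before and 20 bases from the RefSeq start of the gene on build GRCh38.p14, read 5′ to 3′ on the gene's strand. Capitals mark matches to the motifs named below. The windows are chr14:75278578-75278847 on the plus strand for FOS, chr2:28392608-28392877 on the plus strand for FOSL2, chr19:18281603-18281872 on the minus strand for JUND and chr5:138465229-138465498 on the plus strand for EGR1.
FOS: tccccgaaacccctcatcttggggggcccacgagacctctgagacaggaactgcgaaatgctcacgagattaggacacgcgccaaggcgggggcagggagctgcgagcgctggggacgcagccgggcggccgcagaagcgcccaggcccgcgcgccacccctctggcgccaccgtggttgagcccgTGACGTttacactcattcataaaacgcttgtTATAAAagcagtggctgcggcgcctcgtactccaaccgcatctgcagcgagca
FOSL2: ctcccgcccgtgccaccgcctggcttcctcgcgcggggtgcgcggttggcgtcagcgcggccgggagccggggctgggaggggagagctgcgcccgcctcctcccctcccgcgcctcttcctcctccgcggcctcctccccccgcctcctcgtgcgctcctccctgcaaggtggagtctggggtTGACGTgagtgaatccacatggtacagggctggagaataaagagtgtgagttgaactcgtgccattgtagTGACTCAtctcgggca
JUND: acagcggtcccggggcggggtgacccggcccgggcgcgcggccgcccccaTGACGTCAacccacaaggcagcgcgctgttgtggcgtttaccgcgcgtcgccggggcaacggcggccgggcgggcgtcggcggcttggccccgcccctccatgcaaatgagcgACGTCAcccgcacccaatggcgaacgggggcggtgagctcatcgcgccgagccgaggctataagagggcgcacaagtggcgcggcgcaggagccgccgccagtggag
EGR1: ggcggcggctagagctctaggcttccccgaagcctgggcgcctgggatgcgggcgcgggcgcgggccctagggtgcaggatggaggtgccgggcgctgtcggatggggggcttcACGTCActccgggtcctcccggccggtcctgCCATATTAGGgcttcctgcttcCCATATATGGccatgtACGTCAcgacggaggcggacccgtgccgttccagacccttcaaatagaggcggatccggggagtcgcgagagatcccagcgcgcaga

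Motifs were searched on both strands in windows of 300 bases, which run 50 bases past the start, for the 8 members in the RefSeq promoter table (FOSL1 and IER3 had no entry) and for all 35116 windows of that length. The CRE core TGACGT, which ATF and CREB factors bind, was in 5 of the 8 members (FOS, FOSB, FOSL2, JUND and EGR1) and in 7.98% of all windows. In FOS it began 64 bases before the start, in FOSB 60 bases and in FOSL2 66 bases before it. The full CRE TGACGTCA, which contains that core, was in 1 member, JUND, where it began 200 bases before the start, and in 1.85% of all windows. The AP-1 site TGACTCA was in 1 member, FOSL2, where it began at base 5 of the transcribed part, and in 4.95% of all windows. Its variant TGACATCA was in 1 member, JUN, beginning 67 bases before the start, and in 2.61% of all windows. The CArG box, which SRF binds, was in 1 member, EGR1, with copies beginning 105 and 83 bases before the start, and in 1.29% of all windows. The TATA sequence TATAAA was in 3 members, FOS, FOSB and JUNB, and in 11.5% of all windows. The EGR1 binding sequence GCGGGGGCG was in 0 of the 8 and in 5.07% of all windows. These matches describe the letters in the window only. Sequence outside the windows was not searched, so the lack of a CArG match in FOS does not show that FOS lacks an SRF site.

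The values were log2 of TPM plus 1 for each gene and library, where TPM is the number of transcripts of a gene per 1e+06 transcripts of a library, so the reads behind a value are unknown. SIGLEC12 had a mean of 0.11 ± 0.05 (SD, n = 4) in empty vector and 10.70 ± 0.06 (SD, n = 4) in Siglec-XII on that scale, and the groups did not overlap (exact permutation p = 0.0286, two-sided, the smallest that 70 labellings can give). The cell type was checked against markers. Of 12 genes typical of colon epithelium, the intestinal transcription factors CDX1 and CDX2 alone reached 1 TPM in all libraries, 8 stayed under 1 TPM in every library, and KRT20, FABP1 and PHGR1 were at 0 in all. Most defining markers of colon epithelium were thus absent or near 0, while the general epithelial genes KRT8, KRT18, EPCAM and CDH1 were all abundant, with a summed 7270 to 8262 TPM in empty vector and 8768 to 9067 in Siglec-XII. Of 9 genes typical of trophoblast, 6 reached 1 TPM in all libraries, GATA3 highest with a log2 mean of 8.64 in empty vector. GCM1 and TFAP2B stayed under 1 TPM in every library, and CGA ran from 0.127 to 1.35 TPM. The trophoblast list summed to 846 to 1044 TPM in empty vector and 931 to 1013 in Siglec-XII. The corresponding sums were 163 to 186 and 190 to 215 TPM for the colon list. They were 70.7 to 86.8 and 83.2 to 89.1 TPM for 6 fibroblast genes, of which 5 reached 1 TPM in all libraries. For 4 leukocyte genes they were 1.06 to 1.83 and 1.04 to 1.88 TPM. Of these, PTPRC, CD3E and LYZ stayed under 1 TPM in every library, and CD14 ran from 0.720 to 1.84 TPM. The labelled identity of the line is thus not borne out by its colon markers, no other name is given to the cells here, and the part of these differences in the results below was not tested.

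Across the 10 genes, FOSL2 showed the largest difference, with a level about 1.49 times higher in Siglec-XII (95% confidence interval 1.24 to 1.80). JUND, IER2 and JUNB were also higher in the mean, EGR1 was lower, and FOS, FOSB, FOSL1, JUN and IER3 differed by less than the spread between libraries. All 10 genes passed the filter of 1 TPM in at least 4 libraries, and 0 of 10 passed an adjusted p of 0.05 (limma, Benjamini-Hochberg over the 15590 entries tested), a threshold that 0.648% of all entries passed. At an unadjusted p of 0.05 or less there were 4 of 10, namely FOSL2, JUND and IER2 higher and EGR1 lower, against 16.5% of all entries (13.9% higher and 2.61% lower). The libraries of the groups did not overlap for 2 of 10, FOSL2 and JUND, both higher in Siglec-XII, against 10.8% of all entries (9.17% with the higher group Siglec-XII). In bulk RNA, fewer cells that express a gene and less RNA per cell cannot be told apart. The median log2 fold change of the members was 0.16, beside 0.07 over all entries tested, of which 68.1% were higher in Siglec-XII, as were 6 of the 10 members.

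**Figure D1:**
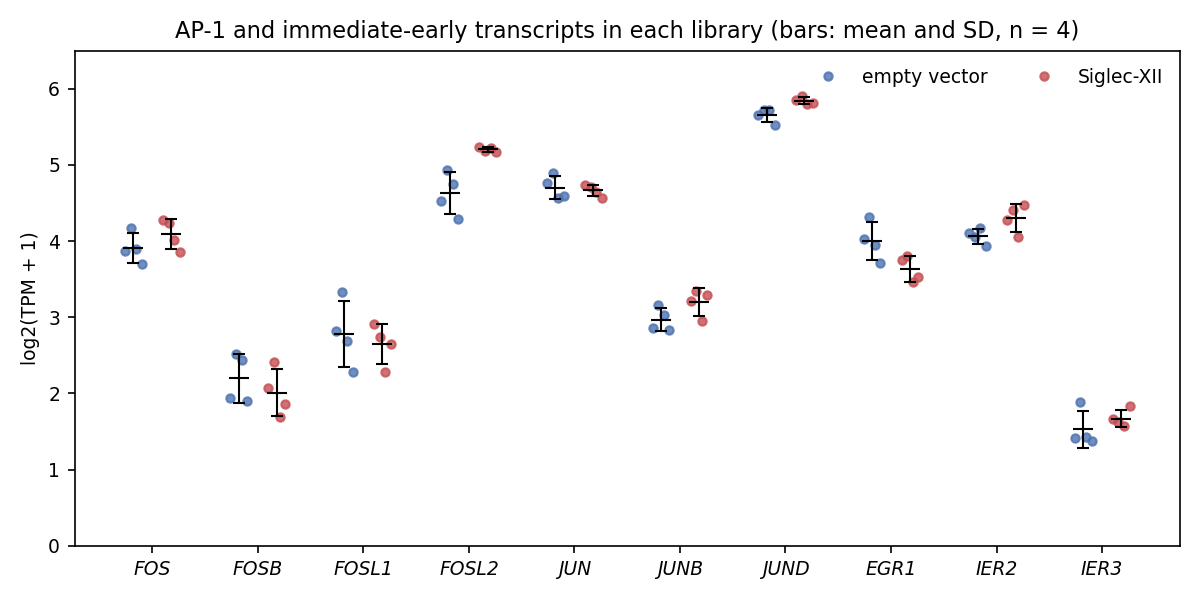
Log2(TPM + 1) of the 10 AP-1 and immediate-early genes in each of 4 empty vector and 4 Siglec-XII libraries; points are libraries and bars are the mean and SD. The Siglec-XII points of FOSL2 (5.18 to 5.24) and of JUND (5.81 to 5.91) lie above all empty vector points of the same gene, and the groups overlap for the other 8 genes.

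Per transcript length, JUND was the most abundant of the genes, with 49.6 ± 3.24 TPM (SD, n = 4) in empty vector, above every library of every other member. JUN at 25.2 ± 2.84 TPM and FOSL2 at 24.1 ± 4.75 TPM followed in empty vector and overlapped. In Siglec-XII FOSL2 stood at 35.9 ± 0.784 TPM and JUN at 24.4 ± 1.30 TPM, with no overlap between them. IER2 (15.7 ± 1.13 TPM), EGR1 (15.2 ± 2.83 TPM) and FOS (14.1 ± 2.07 TPM) lay within each other's spread in empty vector. In Siglec-XII the order among these was IER2 at 18.8 ± 2.47 TPM, FOS at 16.2 ± 2.33 TPM and EGR1 at 11.5 ± 1.48 TPM, and every EGR1 value lay below every FOS value. JUNB (6.86 ± 0.851 TPM in empty vector) overlapped with FOSL1 (6.11 ± 2.19 TPM) in that group. FOSB was at 3.68 ± 1.04 TPM, and the IER3 entry used was lowest at 1.91 ± 0.527 TPM. That entry is 1 of 4 with identical values. With all 6 IER3 entries summed the level was 7.70 ± 2.08 TPM in empty vector and 8.76 ± 1.02 TPM in Siglec-XII. The place of IER3 in this order is therefore uncertain. The deposited FOSL2 entry names a transcript of 393 bases, much shorter than those named for the other members. TPM divides by a transcript length that was not given, so the level of FOSL2 relative to other genes is uncertain. Whether its value covers the whole gene or this transcript alone is not stated, and the part of transcript use in its group difference was not tested.

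FOSL2, which encodes the FOS family protein FRA-2, lies at chr2:28615315-28640184 (GRCh37, plus strand). Its log2 levels were 4.53, 4.94, 4.75 and 4.30 in the empty vector libraries 1 to 4 and 5.24, 5.18, 5.22 and 5.18 in the Siglec-XII libraries 1 to 4. The Siglec-XII libraries were close together and all above the highest empty vector library, while the empty vector libraries were spread. The mean was 4.63 ± 0.28 (SD, n = 4) in empty vector and 5.20 ± 0.03 (SD, n = 4) in Siglec-XII, a log2 fold change of 0.58 (95% confidence interval 0.31 to 0.85, adjusted p = 0.0838). Without the empty vector library 2, the highest of its group, the log2 fold change was 0.68 and passed the threshold (adjusted p = 0.0266), and over all alternatives it lay between 0.47 and 0.68 with adjusted p-values from 0.0266 to 0.208. The antisense gene FOSL2-AS1 was near 0 in all libraries, and a lncRNA on the same strand within FOSL2 was low (0.48 on the log2 scale at the least), with overlapping groups.

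FOS, the founding member of its family (chr14:75745529-75748933, GRCh37, plus strand), had log2 levels of 3.87, 4.17, 3.90 and 3.70 in empty vector and 4.28, 4.23, 4.01 and 3.85 in Siglec-XII. The groups overlapped, with 3 of 4 Siglec-XII libraries above the empty vector mean. The log2 fold change was 0.19 (95% confidence interval -0.09 to 0.46, adjusted p = 0.482), and 0.12 to 0.27 with 1 library left out. FOSB (chr19:45971253-45978437, plus strand) ran from 1.91 to 2.52 in empty vector and from 1.69 to 2.41 in Siglec-XII, a log2 fold change of -0.19 (-0.64 to 0.26, adjusted p = 0.676) that lay between -0.32 and -0.08 with 1 library left out. It overlaps ERCC1 on the opposite strand, which was more abundant at 4.51 to 4.85, and whether the counting of the authors used the strand is not stated. FOSL1, which encodes FRA-1 and is a transcriptional target of ERK signalling (chr11:65659520-65668044, minus strand), was 2.82, 3.33, 2.69 and 2.28 in empty vector and 2.91, 2.74, 2.28 and 2.65 in Siglec-XII. These ranges overlapped nearly in full, the log2 fold change was -0.13 (-0.62 to 0.35, adjusted p = 0.798), and it was 0.05 without the empty vector library 2.

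In the JUN family, JUND, whose product is present in resting as well as growing cells (chr19:18390504-18392432, GRCh37, minus strand), had log2 levels of 5.65, 5.73, 5.73 and 5.53 in empty vector and 5.85, 5.91, 5.81 and 5.82 in Siglec-XII. All Siglec-XII libraries lay above all empty vector libraries, by a small margin. The log2 fold change was 0.19 (95% confidence interval 0.06 to 0.31, adjusted p = 0.168), and it was 0.12 after quantile normalization and 0.13 with equal upper quartiles, where the unadjusted p also exceeded 0.05. JUN (chr1:59242517-59249720, minus strand) was 4.76, 4.90, 4.56 and 4.59 in empty vector and 4.73, 4.71, 4.65 and 4.57 in Siglec-XII, with all Siglec-XII values inside the empty vector range. Its log2 fold change was -0.04 (-0.22 to 0.15, adjusted p = 0.858), an interval that as a fold runs from 0.856 to 1.11. JUNB, which can oppose JUN on some promoters (chr19:12902300-12904129, plus strand), was 2.86, 3.16, 3.02 and 2.83 in empty vector and 3.22, 3.35, 2.94 and 3.29 in Siglec-XII. Here 3 of 4 Siglec-XII libraries exceeded all empty vector libraries and the remaining one fell among them (log2 fold change 0.23, -0.03 to 0.49, adjusted p = 0.354). HOOK2, on the opposite strand at JUNB, was at 4.07 to 4.49.

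**Figure D2:**
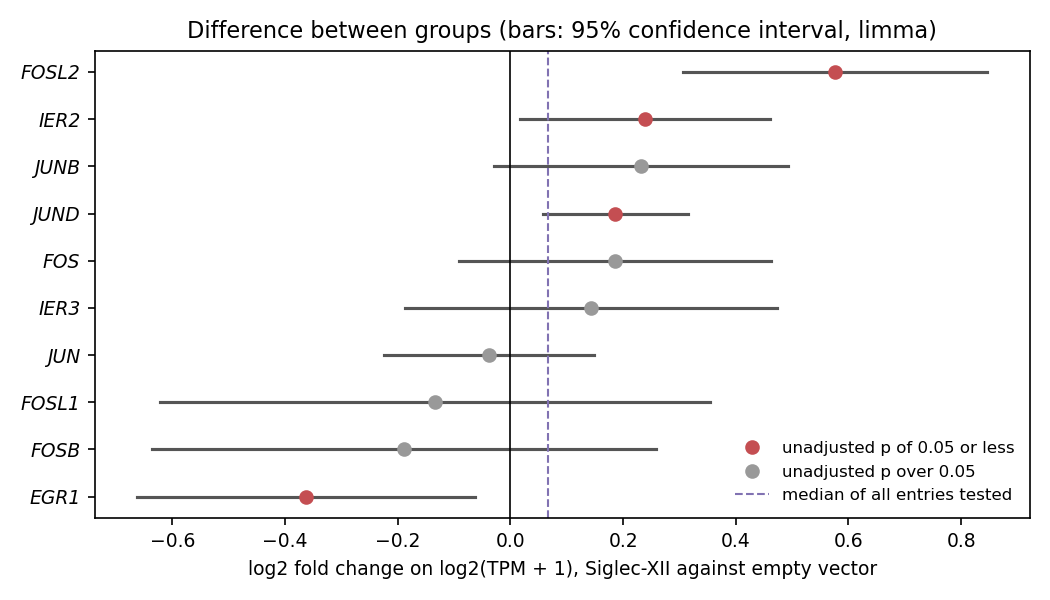
Log2 fold change of each gene, Siglec-XII against empty vector, with its 95% confidence interval from limma; red points have an unadjusted p of 0.05 or less, grey points do not, and the dashed line is the median of all entries tested (0.07). The interval of FOSL2 (0.31 to 0.85) lies farthest above 0 and that of EGR1 (-0.66 to -0.06) lies below it.

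The make-up of each family, as each gene's share of its summed TPM, was set side by side between libraries. The size of the FOSL2 share depends on the transcript length used for its TPM, which was not given, and so do the shares of the other FOS family genes. FOSL2 held 50.2% ± 1.39 (SD, n = 4) of the summed TPM of the FOS family in empty vector and 59.5% ± 3.70 (SD, n = 4) in Siglec-XII, with ranges of 49.0% to 52.2% and 55.9% to 63.1% that did not overlap. FOSL1 held 12.5% ± 2.20 and 8.78% ± 1.44, also without overlap (10.3% at the least in empty vector and 10.1% at the most in Siglec-XII). FOSB held 7.60% ± 1.05 and 5.08% ± 1.25, and FOS 29.7% ± 2.07 and 26.7% ± 2.14, both with overlap. These shares sum to a whole, so a larger share of FOSL2 goes with smaller shares of the others. The summed TPM of the family was 48.0 ± 9.72 in empty vector and 60.5 ± 4.16 in Siglec-XII. JUND held 60.8% ± 2.07 and 63.4% ± 0.667 of the JUN family, JUN 30.8% ± 2.14 and 27.4% ± 0.995, and JUNB 8.40% ± 0.574 and 9.24% ± 1.03, all with overlapping ranges. The summed TPM of the JUN family was 81.6 ± 5.84 and 89.1 ± 3.49, and the ratio of FOS family to JUN family TPM was 0.584 ± 0.0783 and 0.678 ± 0.0285. No test was made of these sums and shares.

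**Figure D3:**
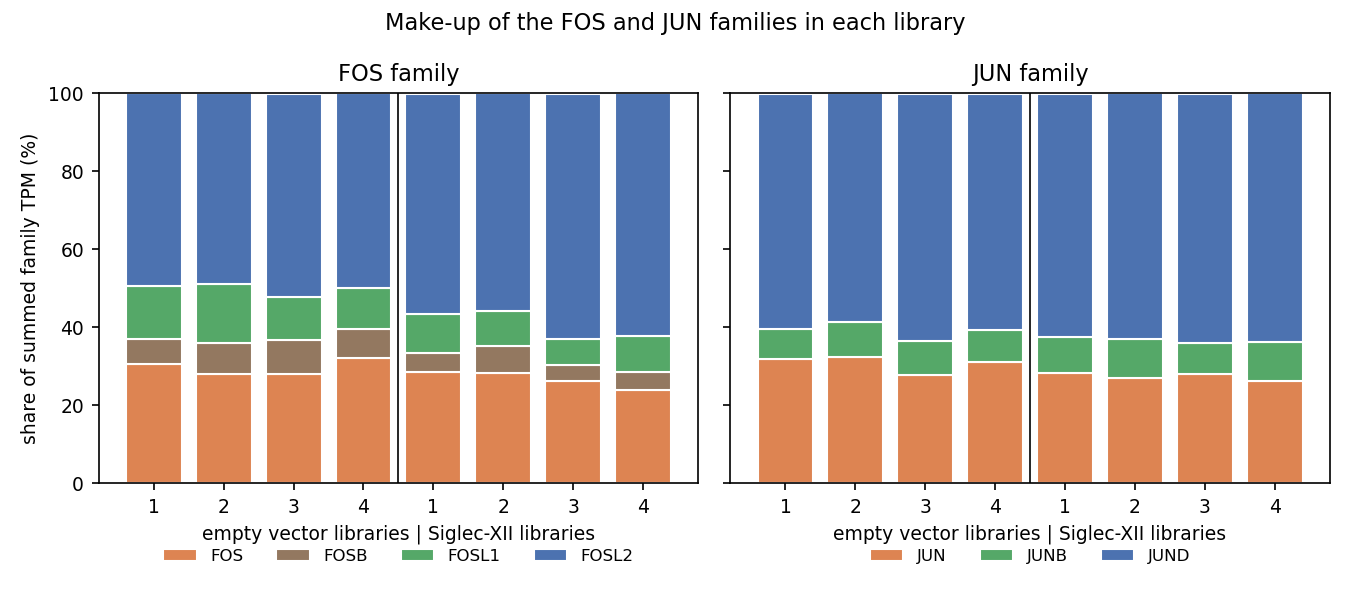
Share of the summed TPM of the FOS family (left) and of the JUN family (right) held by each gene, in percent, as stacked bars for the 4 empty vector and 4 Siglec-XII libraries. The FOSL2 part is 49.0% to 52.2% in empty vector and 55.9% to 63.1% in Siglec-XII, while the JUN family bars look alike across libraries.

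EGR1, a zinc finger transcription factor induced through ERK, ELK1 and SRF (chr5:137801168-137804992, GRCh37, plus strand), stood lower in Siglec-XII. Its log2 levels were 4.03, 4.32, 3.95 and 3.71 in empty vector and 3.76, 3.81, 3.46 and 3.52 in Siglec-XII. All 4 Siglec-XII libraries lay below the empty vector mean, and the groups overlapped because the empty vector library 4 was below the Siglec-XII libraries 1 and 2. The mean was 15.2 ± 2.83 TPM (SD, n = 4) and 11.5 ± 1.48 TPM (SD, n = 4), and the log2 levels gave a log2 fold change of -0.36 (95% confidence interval -0.66 to -0.06, adjusted p = 0.231). It stayed between -0.46 and -0.26 over all alternatives, with an unadjusted p of 0.05 or less in 16 of 19. IER2, a short-lived nuclear protein gene (chr19:13261225-13265725, plus strand), was 4.10, 4.05, 4.17 and 3.93 in empty vector and 4.28, 4.40, 4.05 and 4.47 in Siglec-XII. The Siglec-XII library 3 fell among the empty vector libraries and the other 3 lay above them. Its log2 fold change was 0.24 (0.02 to 0.46, adjusted p = 0.274), with an unadjusted p of 0.05 or less in 8 of 19 alternatives.

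IER3, which encodes a stress-induced regulator of cell survival, had 6 entries under its symbol, 4 of them with identical values, 1 at 0 in all libraries and 1 (the entry at chr6:30710976-30712325, GRCh37, minus strand) above 0 in only 1 library. Entries with identical values cannot be told apart, and the level of this gene is therefore uncertain. The entry used, 1 of the 4, was 1.41, 1.89, 1.43 and 1.37 in empty vector and 1.66, 1.62, 1.57 and 1.83 in Siglec-XII. The empty vector library 2 stood apart from the other 3 and exceeded all Siglec-XII libraries, which in turn exceeded those 3 (log2 fold change 0.14, -0.19 to 0.47, adjusted p = 0.668). With 1 library left out it was 0.09 to 0.26, the highest without the empty vector library 2. With the TPM of all 6 entries summed, an alternative chosen after the data were seen, the mean was 3.09 ± 0.31 and 3.28 ± 0.15 (SD, n = 4 each) and the log2 fold change was 0.19 (-0.16 to 0.53, adjusted p = 0.580).

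EGR1 and FOS moved together from library to library within a group but were offset between the groups. The EGR1 log2 level minus the FOS log2 level was 0.15, 0.15, 0.05 and 0.01 in the empty vector libraries and -0.52, -0.42, -0.55 and -0.33 in the Siglec-XII libraries. EGR1 was thus level with or slightly above FOS in every empty vector library and below it in every Siglec-XII library, with means of 0.09 ± 0.07 and -0.46 ± 0.10 (SD, n = 4 each) and a difference of -0.55. This pair was picked after its values had been seen, so no test is given. Over all alternatives the difference lay between -0.59 and -0.52.

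The level of most members went up and down together between libraries of the same condition. After subtraction of the group mean, 44 of the 45 pairs of members had a positive correlation over the 8 libraries, with a median Pearson r of 0.70 and a range from -0.10 for JUN and IER2 to 0.94 for FOSL1 and EGR1, and FOS and EGR1 had 0.91. The mean pairwise r was 0.613 for the members and 0.0435 over all entries tested. The points share their libraries, and the whole scale of a library moves all of its values, so these are descriptions. In the empty vector library 2, 9 of 10 members were above the group mean (mean deviation 0.26 on the log2 scale), and in the empty vector library 4 0 of 10 were (-0.23). The Siglec-XII libraries 1 and 2 had 8 of 10 above (0.07 and 0.11) and library 3 had 1 of 10 (-0.16). The mitochondrially encoded genes took 8.49% of TPM in the empty vector library 2 and 7.92% in library 4, inside the range of 6.67% to 11.2% over the 8 libraries, and their part in the spread was not tested.

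Members differed in how far they varied. FOSL1 had a within-group SD of 0.36 on the log2 scale, larger than that of 88.1% of the entries whose mean level was within 0.5 log2 of its own. The same share was 92.3% for FOSL2 (SD 0.20, nearly all of it from the empty vector libraries), 83.7% for EGR1 (0.21) and 81.2% for FOS (0.20). JUND, with an SD of 0.07, was larger than only 23.0% of such entries, so that a difference of 0.19 exceeded its spread where the same difference in FOS did not. Of the 32 other immediate-early genes tested, 14 (43.8%) had a Pearson r over 0.7 with the mean deviation of the members, beside 5.56% of all entries. The 5 entries outside the members most like that mean over the 8 libraries were PODXL (r = 0.985), TPRN (0.982), NADK2 (0.982), RAB19 (0.979) and ADM (0.979).

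**Figure D4:**
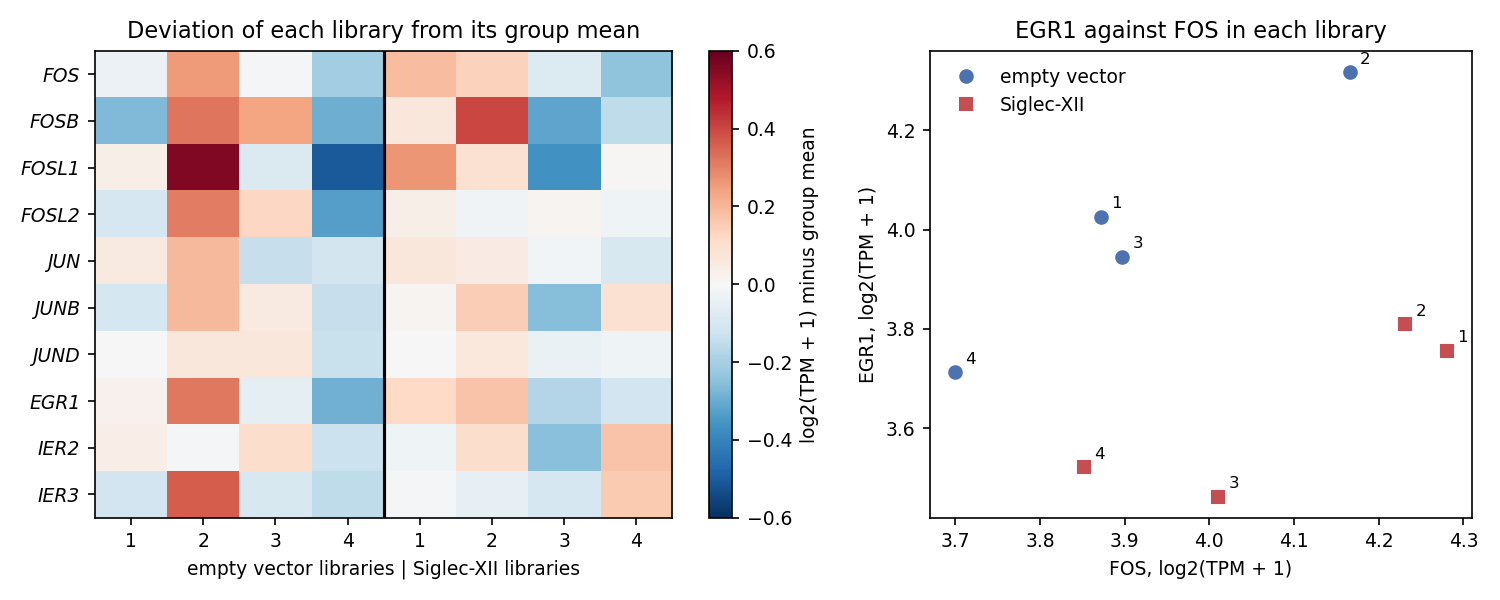
Left, deviation of each gene from its group mean in each library on the log2(TPM + 1) scale (red above, blue below). Right, EGR1 against FOS in each library, both as log2(TPM + 1), with the library number beside each point. The empty vector library 2 is red for most genes and library 4 is blue for all, and in the right panel the 4 Siglec-XII squares lie below and to the right of the line that the empty vector circles follow.

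The other genes of this system were read from lists by role. Of 35 other immediate-early genes, 32 were tested, 27 were higher and 5 lower in the mean, 10 had an unadjusted p of 0.05 or less (all higher), and 3 rose past an adjusted p of 0.05, with a list median of 0.17. Over all entries tested, 13.9% were higher and 2.61% lower at that unadjusted p, and 0.648% passed the adjusted threshold (0.34% higher), which is the background for this and the following lists. GADD45B, a stress and growth arrest gene, was 4.38, 4.48, 4.34 and 4.18 in empty vector and 5.03, 4.90, 5.01 and 4.95 in Siglec-XII, a log2 fold change of 0.63 (95% confidence interval 0.47 to 0.79, adjusted p = 0.0040). ZFP36L2, which encodes a protein that promotes decay of AU-rich mRNAs, was 4.61, 4.70, 4.64 and 4.56 against 5.08, 5.12, 5.04 and 5.05 (0.44, 0.33 to 0.56, adjusted p = 0.0046). Neither gene's groups overlapped, which held for 7 of the 32 tested genes of this list and for 10.8% of all entries. Both calls held in all 19 alternatives. KLF10, a TGF-beta inducible zinc finger factor, had a log2 fold change of 0.44 (0.27 to 0.61, adjusted p = 0.0365), a call that was lost in 14 of 19 alternatives with adjusted p-values up to 0.120. KLF4 had the second largest difference of the list, 0.52, and did not pass (adjusted p = 0.0797). Neither did TRIB1 at 0.43 (0.138) or PLK2 at 0.31 (0.215). PLK2 had an unadjusted p of 0.05 or less in 16 of 19 alternatives. KLF4 and TRIB1 passed in 1 of 19 alternatives, that without the empty vector library 2 (adjusted p = 0.0285 and 0.0180). That library was the highest of its group for both genes. Over all alternatives their adjusted p-values reached 0.189 and 0.320.

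Among 14 other AP-1 partners and related leucine zipper factors, 11 were tested, 10 were higher in the mean and 0 passed an adjusted p of 0.05, with 4 at an unadjusted p of 0.05 or less, all higher (13.9% of all entries), and a median of 0.15. These were BATF3 (log2 fold change 0.42, adjusted p = 0.184), the small MAF genes MAFK (0.27, 0.0797) and MAFG (0.27, 0.228), and ATF3 (0.24, 0.230), itself a stress-induced immediate-early gene. MAFG had an unadjusted p of 0.05 or less in 14 of 19 alternatives and ATF3 in 15, while BATF3 and MAFK did in all that held them. All 17 upstream kinases and promoter factors were tested, 15 were higher in the mean, 7 were at an unadjusted p of 0.05 or less (all higher, against 13.9% of all entries) and 0 passed the adjusted threshold, with a median of 0.18. The promoter factor ELK1 differed by 0.28 (adjusted p = 0.0920), MAPKAPK2, a kinase downstream of p38, by 0.24 (0.112), the MEK genes MAP2K2 and MAP2K1 by 0.21 (0.126) and 0.19 (0.208), and the RSK kinase gene RPS6KA3 by 0.19 (0.282). RPS6KA3 had an unadjusted p of 0.05 or less in 7 of 19 alternatives and MAP2K1 in 17. With equal upper quartiles, where the median of all entries was 0.01, neither did. The values of this list are transcript levels and say nothing of phosphorylation.

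Of 6 genes that restrain AP-1 or EGR1, 5 were tested, 4 were higher and 1 was past the unadjusted threshold, FBXW7, part of the ubiquitin ligase that targets JUN (0.34, adjusted p = 0.136), with a median of 0.10. Of 29 genes known as targets of AP-1 or EGR1, 20 were tested and 9 lay under the filter, among them the collagenase genes MMP1 and MMP13. The tested targets were higher in 18 of 20 cases with a median of 0.10, 5 higher and 1 lower at an unadjusted p of 0.05 or less (13.9% and 2.61% of all entries), and 0 past the adjusted threshold. SPP1, the osteopontin gene, was 1.40, 1.40, 1.15 and 1.46 in empty vector and 2.51, 1.99, 1.60 and 1.80 in Siglec-XII (log2 fold change 0.62, adjusted p = 0.172). AREG, which encodes the EGF receptor ligand amphiregulin, went the other way, with 1.79, 1.89, 1.75 and 1.78 against 1.41, 1.74, 1.29 and 1.33 (-0.36, adjusted p = 0.230). The groups did not overlap for either gene, which held for 3 of the 20 tested targets (2 higher and 1 lower) and for 10.8% of all entries. For AREG the gap was small, with 1.745 at the most in Siglec-XII and 1.747 at the least in empty vector. AREG had an unadjusted p of 0.05 or less in 15 of the 18 alternatives that held it. CCND1 (cyclin D1) differed by 0.36 (adjusted p = 0.172), the cytokine gene IL6 by 0.27 (0.138) and the membrane linker gene EZR by 0.16 (0.211). With equal upper quartiles EZR exceeded an unadjusted p of 0.05. CCND1 and MAPKAPK2 passed the adjusted threshold in 1 of 19 alternatives, that without the empty vector library 2 (adjusted p = 0.0413 and 0.0492). That library was the highest of its group for both genes. Over all alternatives their adjusted p-values reached 0.399 and 0.244. The 6 heat shock genes had a median of 0.00, 3 higher and 3 lower, with 0 at an unadjusted p of 0.05 or less. The shares of higher genes in these lists stand beside 68.1% of all entries, and no list was tested as a set.

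**Figure D5:**
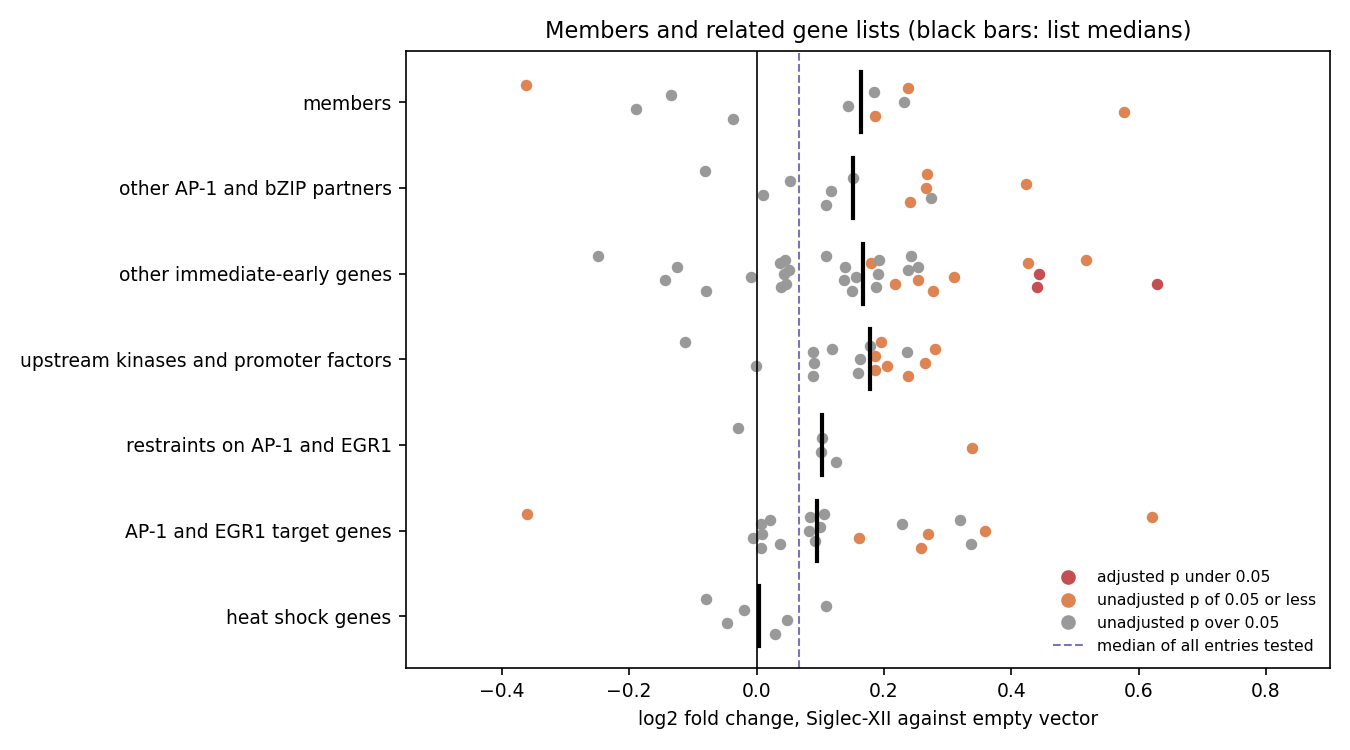
Log2 fold change, Siglec-XII against empty vector, of each tested gene in the members and in 6 related lists; colours give the test result, black bars the list medians and the dashed line the median of all entries tested (0.07). Red points, past an adjusted p of 0.05, occur in the other immediate-early genes (3 genes), and the list medians run from 0.00 for the heat shock genes to 0.18 for the upstream kinases and promoter factors.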

How the data were processed

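RNA-seq was done on 8 Caco-2 libraries, 4 per group. Per the labels they were made with a strand-specific, rRNA-depleting total RNA kit, while the paper's methods give an mRNA kit. The authors quantified reads with kallisto (version 0.45.0 in the submitters' processing notes) on hg19 and deposited log2 values of TPM + 1, with no read counts, so the depth behind each value is unknown and no counting interval can be given. TPM is relative to the rest of a library's RNA.

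The deposited log2 values were used unscaled. Groups were compared with limma 3.58.1 (R 4.3.3; lmFit, eBayes with a mean-variance trend, two-sided), with p-values adjusted by Benjamini-Hochberg across all 15590 entries at 1 TPM or more in no fewer than 4 libraries, and the fit was tested on simulated data. The study used a count model, which these values do not allow. SIGLEC12 was compared by an exact permutation test. Intervals are 95%. A log2 fold change on the log2(TPM + 1) scale understates the change of low genes. Positions are from GENCODE on GRCh37. Promoters are from RefSeq on GRCh38.p14, in which 8 of the 10 members matched by symbol. Figures were drawn with matplotlib 3.10.9.

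The members and the gene lists were chosen with earlier results of these data known. The text names the members, SIGLEC12, in each list the genes past an adjusted p of 0.05 and the largest at an unadjusted p of 0.05 or less (up to 6), the cell type markers, and the 5 entries most like the members. A few genes that this rule would name are not reported here. Genes that overlap a member were named for their position, and the EGR1 and FOS pair was chosen after its values were seen. Alternatives were a pseudocount of 0.1, other filters on low values, other scalings, the replicate number as a block, no trend, array weights, each library left out in turn and, added after the data were seen, the IER3 entries summed.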

Additional observations from a re-analysis of the deposited data

Results flagged for a closer look

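In 34 genes (the 10 members and the named genes of the lists and SIGLEC12), each with 2 groups of 4 libraries, 68 groups were examined for a library far from the others. The level of IER3 in the empty vector library 2 was 1.89 on the log2(TPM + 1) scale while the other 3 libraries lay between 1.37 and 1.43, and the gap was 0.887 of the group's whole range, beyond Dixon's 95% critical value for 4 samples. Chance alone marks about 1 in 20 groups.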

How the results depend on the processing

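Depth and the independence of the libraries are unknown, and the cells lack most colon markers that the name of the line implies (a summed 163 to 186 TPM for the colon list and 846 to 1044 TPM for the trophoblast list in empty vector). The count of entries past an adjusted p of 0.05 was 101, and it was 51 with no filter on low values, 23 with small structured RNAs left out, 54 without the mean-variance trend and 49 to 159 with 1 library left out, the highest without the empty vector library 2. The count of members past that threshold was 0 in all settings but the one without the empty vector library 2, where it was 1 (FOSL2), so the range with 1 library left out was 0 to 1. The count of members at an unadjusted p of 0.05 or less was 4, and it was 2 (FOSL2 and EGR1) after quantile normalization and 2 (the same genes) with equal upper quartiles, and 2 to 4 with 1 library left out, 2 (FOSL2 and JUND) without the Siglec-XII library 4. The JUN log2 fold change of -0.04 was 0.0075 with array weights and ran from -0.084 to 0.027 with 1 library left out, and that of FOSL1 from -0.30 to 0.050, both turning positive without the empty vector library 2. The cause of these shifts was not tested. The median of the members stayed between 0.10 and 0.22, and SIGLEC12 between 10.56 and 13.20. The replicate numbers did not pair the samples (correlations of same-numbered deviations of 0.04, 0.03, -0.07 and 0.06), and not every library correlated best with its own number. With the replicate number as a block, 69 of all entries and 0 members passed the adjusted threshold, 3 members had an unadjusted p of 0.05 or less, and KLF10 no longer passed (adjusted p = 0.0955). With the IER3 entries summed, an alternative chosen after seeing the data, no call changed.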
